A study of Mus musculus and synthetic RNA with 74 samples.

Results

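The 10 genes described here encode the SR splicing factors Srsf1, Srsf2, Srsf3, Srsf4, Srsf5, Srsf6, Srsf7, Srsf9, Srsf10 and Srsf11. They were chosen by name and not by any measured value. They are part of transcriptomes of single mouse embryos, which list 20330 genes at E2.5, that is at embryonic day 2.5, and 21199 genes at E3.5, and all 10 were listed at both stages. Their RefSeq transcripts gave 75 exons and 67 introns, out of 221684 exons and 199425 introns in all. The embryos came from crosses of Mettl16+/- mice, so Mettl16, the gene of an RNA N6-adenosine methyltransferase, was wild-type (WT), heterozygous (HET) or homozygous for the knockout allele (KO). At E2.5, the 16-cell morula, there were 5 WT, 14 HET and 12 KO embryos, and at E3.5, the blastocyst, there were 18 WT, 9 HET and 12 KO embryos. The knockout allele carries a cassette of stop codons in exon 3 and stems from a single mouse line, made in B6D2F1/J embryos and crossed to C57BL/6JRj. All mothers were superovulated, and the embryos were genotyped from their own reads.

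The tables used here give 1 value per gene, exon or intron and stage, the authors' mean normalized read count over all embryos of that stage, with the 3 genotypes pooled. There is therefore no value per embryo, no spread, no test and no comparison of genotypes in what follows. The depth of the single libraries, which the paper lists as numbers of reads, is not part of these tables. The 2 stages were normalized separately. Stage cannot be told apart from litter, library batch, number of cells or genotype mix, since KO embryos were 38.7% of the embryos at E2.5 and 30.8% at E3.5. Whether less RNA of a gene came from fewer cells or from less RNA per cell cannot be told apart either.

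SR proteins bind exonic sequences through RNA recognition motifs and recruit the spliceosome through domains rich in arginine and serine, which SRPK and CLK kinases phosphorylate. Many of their genes limit their own expression. They hold a stretch of extreme conservation around an alternative exon that carries a stop codon, a poison exon, and transcripts that include it are degraded by nonsense-mediated decay. Other transcripts of this family keep an intron and stay in the nucleus, and such an intron is called detained. Both forms leave reads inside introns of the coding transcript, which is what the exon and intron tables can show.

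Markers of the preimplantation embryo were present. Of 10 markers of the preimplantation embryo, 9 had a mean of at least 100 normalized counts at E2.5 and 10 did at E3.5, with summed means of 22046 and 91832. The keratins Krt8 and Krt18, of the trophectoderm, made up most of the sum at E3.5, with means of 30838 and 35173, against 651 and 1332 for E2.5. Not all markers were higher at E3.5, and Pou5f1 had 9017 and 3527, and Tfap2c 5278 and 1849. Of 5 cumulus and granulosa cell markers, which would mark cells of the mother, 3 were listed at E2.5 and 5 at E3.5, with summed means of 2.66 and 3.61, and Foxl2 and Fshr were not listed at E2.5. The summed mean of 3 blood markers was 50.2 at E2.5, almost all of it Hba-a1 with 49.6, and 14.5 at E3.5. Mettl16 itself had a mean of 778 at E2.5 and 669 at E3.5. Its known target Mat2a, which encodes the S-adenosylmethionine synthetase subunit, had a mean of 29053 and 4664. Being means over all genotypes, these values are no check of the genotype labels.

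Extra exons inside introns of the coding transcripts were searched first, because their sequences define what a poison exon is. In RefSeq and GENCODE vM21, 25 exons of the 10 genes lay wholly inside an intron of a coding transcript, and 16 of them were internal to at least 1 annotated transcript. Of these 16, 15 lay between coding exons, and 13 of the 15, in 7 genes, brought a stop codon in the reading frame that entered them. These 13 were 76 to 460 nt long. The sequences that follow, from GRCm38, are those of the 3 exons with a value of their own in the tables (Srsf3, Srsf7 and Srsf9) and of exons in Srsf6 and Srsf11 whose host introns are described further on. Each begins with the last 25 intron bases before the exon and ends with the first stop codon in frame, which is in capitals.
Srsf3, 456-nt exon, chr17:29039429-29039487, plus strand: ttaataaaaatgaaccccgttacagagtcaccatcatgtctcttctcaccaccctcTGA
Srsf7, 460-nt exon, chr17:80205054-80205106, minus strand: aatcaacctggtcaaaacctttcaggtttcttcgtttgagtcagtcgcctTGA
Srsf9, 90-nt exon, chr5:115331425-115331460, plus strand: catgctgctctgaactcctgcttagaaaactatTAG
Srsf6, 268-nt exon, chr2:162932790-162932966, plus strand: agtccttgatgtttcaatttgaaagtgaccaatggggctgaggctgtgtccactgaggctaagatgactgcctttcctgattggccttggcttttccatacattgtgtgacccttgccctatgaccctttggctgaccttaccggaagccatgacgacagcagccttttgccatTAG
Srsf11, 109-nt exon, chr3:158024209-158024256, minus strand: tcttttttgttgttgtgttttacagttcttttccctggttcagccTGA
Srsf11, 117-nt exon, chr3:158023310-158023384, minus strand: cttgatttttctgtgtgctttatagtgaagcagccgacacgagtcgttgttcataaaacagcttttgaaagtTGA

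The stop codon came early in most of these exons. It lay at position 32 of the 456-nt exon of Srsf3 and would leave 124 codons of the 164 of the coding transcript. In Srsf7 it lay at position 26 of 460 and would leave 137 of 235 codons, and in Srsf9 at position 9 of 90, leaving 120 of 222. In Srsf6 it lay at position 150 of the 268-nt exon and would leave 135 of 339 codons. The Srsf11 exons of 109 and 117 nt would leave 147 and 156 of 511 codons. All 6 exons are preceded by AG and followed by GT in the genome. A 165-nt form of the Srsf6 exon has the same start and the same stop codon and was counted separately. In Srsf10 a 360-nt exon in intron 2 has a stop codon at position 5, after 58 of 262 codons. A 358-nt exon in intron 1 of Srsf9 has a stop codon at position 80, after 90 of 222 codons. In intron 1 of Srsf11, a 76-nt exon begins with a stop codon, after 30 of 511 codons. Srsf4 has extra exons of 207, 184 and 198 nt in its first intron with a stop in frame. The extra exon of Srsf2, 104 nt long, lies 3′ of the stop codon and brings none into the frame. The transcripts that hold it are annotated as protein-coding and as subject to nonsense-mediated decay. The 376-nt exon of Srsf5 is the last exon of its only annotated transcript. Srsf1 has no such exon in either annotation.

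The genes lie on 7 chromosomes of GRCm38. Srsf1 is at chr11:88047373-88053757, Srsf2 at chr11:116849897-116853094, Srsf3 at chr17:29032660-29043372 and Srsf7 at chr17:80200080-80207305. Srsf4 is at chr4:131873639-131901725, Srsf10 at chr4:135856071-135869908, Srsf5 at chr12:80945504-80950507 and Srsf6 at chr2:162931508-162937121. Srsf9 is at chr5:115327177-115333080 and Srsf11 at chr3:158010493-158036639. Srsf2, Srsf7 and Srsf11 are on the minus strand and the others on the plus strand.

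Levels per length differed widely within the family. Per kb of spliced length, Srsf3, the smallest family member, which also serves as an adaptor for mRNA export, had the highest mean, 5963 normalized counts per kb at E2.5 and 5873 at E3.5. This put it at the 95.0th percentile of all genes with a mean of at least 100 at E2.5 and at the 94.8th at E3.5. Srsf7, an export adaptor with a zinc knuckle, had 4349 and 5321 per kb. Srsf2, known as SC35 and found in nuclear speckles, had 5093 and 3338, and Srsf5 had 4844 and 3912. Srsf6 followed with 3065 and 1963. The order of the genes depends on the measure. By the median density of the exons of a gene, Srsf7 had 29660 per kb at E2.5 and 28447 at E3.5, above 19341 and 9226 in Srsf3. On that measure Srsf10 had 4577 and 4276, above 1534 and 2388 in Srsf9.

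The other 5 genes were lower per kb of spliced length at both stages, though at E3.5 the highest of them, Srsf9, came close to Srsf6. Srsf11, an SR-related protein that contacts U2AF, had 1233 normalized counts per kb at E2.5 and 1561 at E3.5, and Srsf9 had 1175 and 1832. Srsf10, which represses splicing when it is dephosphorylated, had 562 and 811 per kb. Srsf1, the founding member of the family, had 528 and 596. Srsf4 had the lowest level at both stages, 177 and 298 per kb, at the 40.7th and 53.1st percentile. The order of the 5 highest was Srsf3, Srsf2, Srsf5, Srsf7 and Srsf6 at E2.5 and Srsf3, Srsf7, Srsf5, Srsf2 and Srsf6 at E3.5. Which neighbours in this order differ beyond their spread is not known, since no spread is available. The 10 genes held 0.278% of the summed gene means at E2.5 and 0.228% at E3.5.

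**Figure D1:**
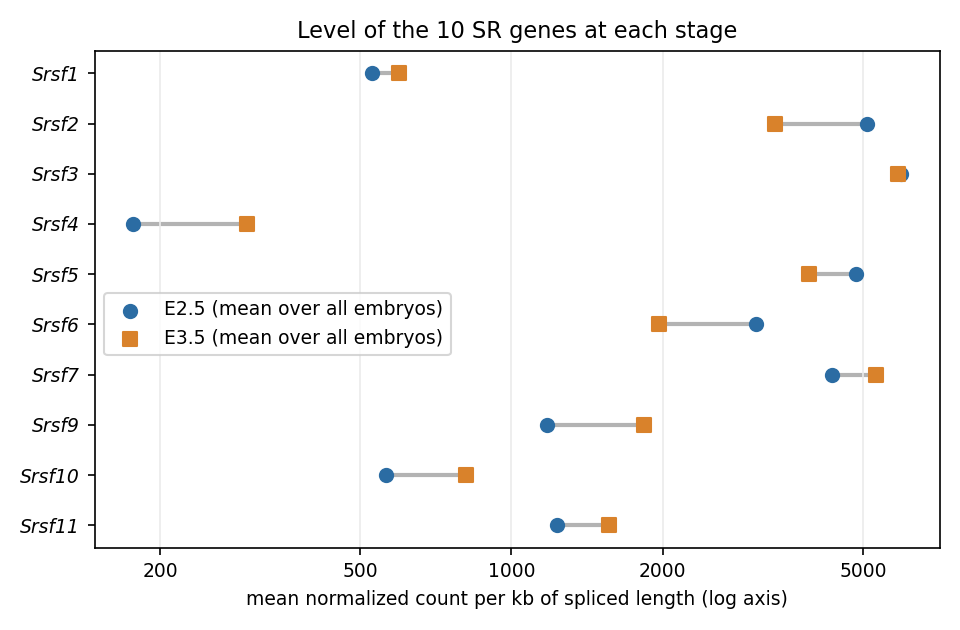
Mean normalized count per kb of spliced length (log axis) of the 10 SR genes, 1 point per gene and stage, each the authors' mean over all embryos of that stage, so there are no error bars. Srsf3 lies farthest right at both stages, at 5963 and 5873, and Srsf4 farthest left, at 177 and 298.

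Between the stages, 9 of the 10 SR genes differed by less than 2-fold relative to the median gene, Srsf2 only just so. In unscaled means per gene, Srsf1 had 2883 normalized counts at E2.5 and 3258 at E3.5, Srsf2 had 9692 and 6352, and Srsf3 had 16774 and 16520. Srsf4 had 398 and 671, Srsf5 had 7594 and 6132, and Srsf6 had 10873 and 6961. Srsf7 had 10267 and 12562, Srsf9 had 1418 and 2211, Srsf10 had 1733 and 2501, and Srsf11 had 3793 and 4802. These raw ratios include a shift of 0.39 (log2), the median of 7599 genes with a mean of at least 100 at both stages. The ratios that follow are given relative to that median gene, which the choice of normalization sets.

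Relative to the median gene, 7 of the 10 genes were lower at E3.5 than at E2.5 and 3 were higher. The lowest log2 ratios were those of Srsf6 (-1.03) and Srsf2 (-0.996), followed by Srsf5 (-0.69) and Srsf3 (-0.41). Srsf1 (-0.21), Srsf7 (-0.10) and Srsf11 (-0.05) lay closer to the median gene. The highest were Srsf4 (0.37), Srsf9 (0.25) and Srsf10 (0.14). The signs of Srsf1, Srsf7 and Srsf11 turned with the normalization or the counting used. At a fold of 2, 1 of the 10 genes was lower, Srsf6, beside 19.7% of the 7599 genes, and 0 were higher, beside 19.8%. Srsf6 and Srsf2 lie so near this limit that the count was 0 when scaled to the total, with -0.85 for Srsf6, and 2 without the filter on the gene mean, with -1.15 and -1.12. The SD of the ratio over all 7599 genes was 1.31 (log2), and the median of the SR genes was -0.15.

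Other splicing genes were counted for comparison. Of 19 SR-related genes and SR protein kinases with a mean of at least 100 at both stages, 9 were higher and 10 lower than the median gene at E3.5, with a median log2 ratio of -0.06. Of 17 genes of heterogeneous nuclear ribonucleoproteins, which often oppose SR proteins at exons, 5 were higher and 12 lower, with a median of -0.50. At a fold of 2, 1 gene was higher and 3 were lower in each of these lists. Without a spread, the SR genes cannot be said to differ from either list.

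Reads shifted toward the 3′ ends of transcripts between the stages, in the SR genes as in nearly all others. The mean count of the second exon, taken relative to that of the last exon of the same transcript, was lower at E3.5 in 8 of the 10 SR genes, beside 91% of 6964 genes. The median change of the log2 ratio was -1.66 over the SR genes and -1.50 over 6954 others. In Srsf2 the second exon had 4332 at E2.5 and 1041 at E3.5, while the last exon had 4190 and 4426. In Srsf6 the second exon had 2641 and 542, and the last exon 5624 and 4070. In Srsf11 the second exon had 1098 and 514, and the last exon 444 and 1169. These are unscaled mean counts.

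Srsf5 went the other way, Srsf7 hardly moved, and Srsf10 depended on the last exon used. Srsf5 had 2340 and 1705 in its second exon and 2790 and 1147 in its last exon, a change of the log2 ratio of 0.83. Srsf7 changed by -0.03. Srsf10 changed by 0.27 with the nearer of its 2 last exons as the reference, which is the value in the count of 8, by -0.94 with the farther one and by -0.29 with both summed, and 9 of the 10 genes were then lower. The part of this shift in the gene ratios above and in every comparison of an exon or intron between the stages was not tested.

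**Figure D2:**
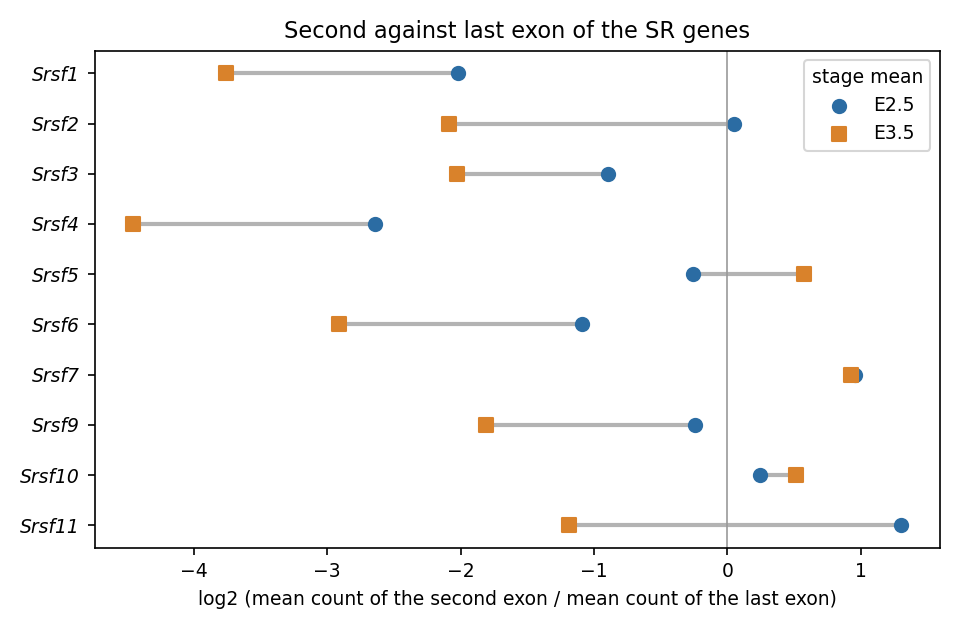
Log2 ratio of the mean count of the second exon to that of the last exon for each SR gene, with 1 point per stage and no error bars, since each point is a mean over all embryos of a stage. The E3.5 point lies left of the E2.5 point in 8 of 10 genes, by up to 2.49 in Srsf11, and right of it in Srsf5 and, with the nearer last exon used here, in Srsf10.

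The 3 poison exons listed with a value of their own differed in how far they were covered. The 456-nt exon of Srsf3 had a mean of 150 normalized counts at E2.5 and 105 at E3.5. Its neighbours, of 135 and 39 nt, had 4646 and 3085 at E2.5. The density of the poison exon, its count per nt, was 0.581% of the mean density of these neighbours at E2.5 and 0.536% at E3.5. Reads that only touch an exon are counted, which raises the density of short exons most, and with the maximum read length of 80 nt added to every length the shares were 1.18% and 1.14%. Against the median exon of the gene they were 1.71% and 2.496%.

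The 460-nt exon of Srsf7 had the highest mean of the 3, 648 at E2.5 and 489 at E3.5, or 4.06% and 4.05% of the density of its neighbours. With the read length added, the share was 6.09% at E2.5. The 90-nt exon of Srsf9 had means of 13.1 and 5.67, or 3.66% and 1.80%. A 79-nt form of this exon, internal to a transcript annotated as protein-coding, begins just after that stop codon and holds none in frame. Reads of the 79-nt form cannot be told apart from those of the 90-nt exon, here and in the values of this exon below. Against the median exon of the gene, the Srsf9 share at E2.5 was 9.51%, above the 4.75% of Srsf7 taken in the same way. Srsf3, the gene with the highest level per kb of spliced length, had the lowest share under all 3 ways of taking it. Among all other genes, the same share for internal exons that RefSeq holds only in non-coding transcripts had a median of 5.15% over 74 exons of 65 genes at E2.5. Their quartiles were 1.74% and 26.5%. At E3.5 the median was 11.0% over 92 exons of 81 genes. Since transcripts with a stop in a poison exon are open to decay, the share is one of RNA present and not of splicing choices.

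Reads in the introns that host these exons were concentrated on the exons. The Srsf3 exon makes up 21.2% of its host intron, intron 3 of the coding transcript, while its mean was 71.9% of that of the whole intron at both stages. The Srsf7 exon makes up 52.6% of intron 3 and had 92.4% of its mean count at E2.5 and 97.3% at E3.5. The Srsf9 exon makes up 6.17% of intron 2 and had 61.8% and 56.3%. A read that crosses an edge of the exon can count for both sides, so these percentages need not add up to the whole.

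The introns left on either side of each poison exon were covered less densely than the exon. In Srsf3 at E2.5 the exon had 330 normalized counts per kb, the part of the intron before it 54.9 and the part after it 42.4. In Srsf7 the exon had 1408 per kb, the part before it 508 and the part after it 190. At E3.5 the Srsf7 values were 1062, 262 and 40.6. In Srsf9 the exon had 146 per kb at E2.5, against 10.1 before and 4.16 after. The exon was thus between 2.77 and 35.0 times as dense as the adjoining intron parts in the 3 genes over both stages, with the lowest of these ratios in Srsf7 before the exon at E2.5.

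**Figure D3:**
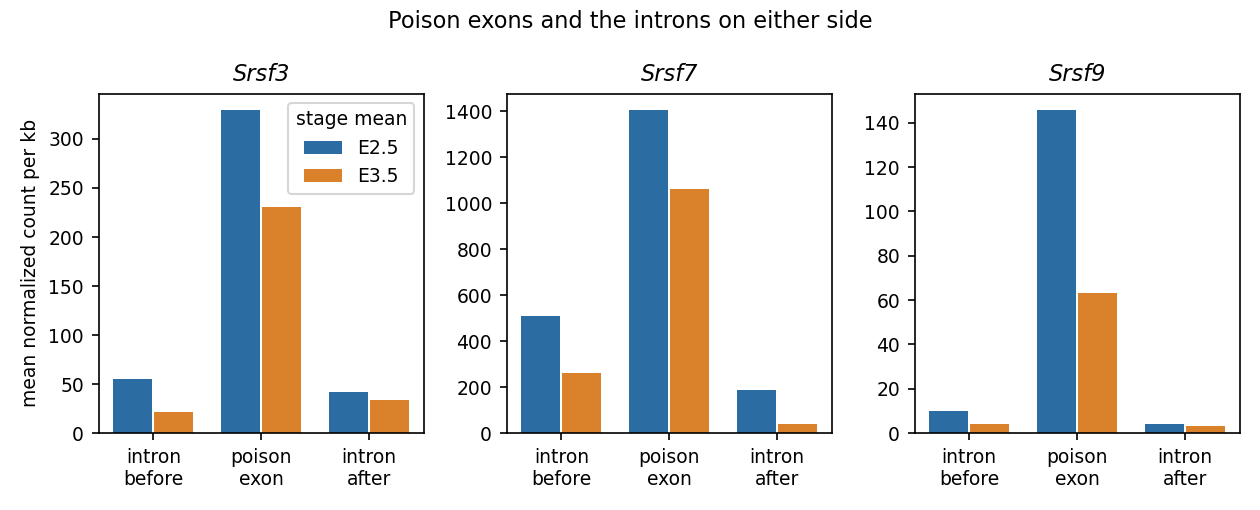
Mean normalized count per kb in the poison exon of Srsf3, Srsf7 and Srsf9 and in the intron parts before and after it, at E2.5 and E3.5, with a separate linear axis for each gene. Bars are means over all embryos of a stage without error bars. The exon is the highest bar in each gene, at 330, 1408 and 146 at E2.5.

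For the genes whose extra exons have no value of their own, the host intron was compared with the other introns of the same gene. This rule was chosen after the values had been seen, and introns that overlap an exon of a coding RefSeq transcript were left out of it, among them intron 1 of Srsf11. In 8 of the 10 genes at least 1 intron held a non-coding internal exon and at least 1 did not. The densest intron of the gene was one that held such an exon in 6 of these 8 at E2.5, beside 21.6% of 1268 genes, and in 6 of 8 at E3.5, beside 19.1% of 1431 genes. The 8 genes have 2 to 11 introns, and among genes with 2 to 11 introns the shares were 28.7% of 690 and 27.7% of 784. Only this range was matched, not the number of introns of each gene or of those that hold such an exon. In Srsf9, 2 of 3 introns held such an exon, and in Srsf2 1 of 2, a layout that by itself makes a match likely.

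Srsf7 had the most densely covered host intron. Its intron 3, with the 460-nt poison exon, had 802 normalized counts per kb at E2.5, against 148 in the next densest intron, which is 5.43-fold more. At E3.5 the values were 575 and 65.2, or 8.81-fold. Srsf9 had 14.98-fold and Srsf2 14.5-fold at E3.5, but against introns with means of only 0.132 and 2.32 normalized counts. These 2 folds have no known precision and are not ranked against that of Srsf7. In Srsf2, intron 2, which holds the 104-nt exon and lies in the 3′ UTR, had 134 per kb at E2.5 and 142 at E3.5, against 44.3 and 9.82 in intron 1. Mettl23 and Mfsd11, on the opposite strand, overlap Srsf2, and with libraries that do not keep the strand their reads cannot be told apart from those of Srsf2. For intron 1 of Srsf2 this holds in the intron itself, which overlaps an exon of Mfsd11.

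Intron 2 of Srsf6 had 56.5 normalized counts per kb at E2.5 and 37.1 at E3.5, against 28.1 and 18.4 in intron 5. Intron 3 of Srsf11, with the exons of 109 and 117 nt, had 46.1 and 45.4 per kb, against 29.3 in intron 7 at E2.5 and 35.7 in intron 10 at E3.5. Intron 1 of Srsf11, left out of the rule, was denser than intron 3 at both stages, with 64.3 and 56.5 per kb. It also overlaps an exon of Gm43362, whose reads cannot be told apart from those of Srsf11. Intron 2 of Srsf9 had 14.6 and 6.91 per kb, against 6.41 and 0.461 in intron 3, the only intron of this gene without an extra internal exon. Intron 3 of Srsf3 had 97.3 per kb at E2.5, against 48.4 in intron 4. At E3.5 the order was reversed in Srsf3, with 68.0 in intron 3 and 82.6 in intron 4.

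Srsf4 and Srsf10 did not follow at E2.5. In Srsf4, intron 1 had 6.18 normalized counts per kb and intron 5 had 6.94, and at E3.5 intron 1 had 15.8 and intron 4 had 12.4. Exons of A930004J17Rik lie in intron 1, and exons of Gm12992 in introns 4 and 5, so reads of these genes cannot be told apart from those of Srsf4. In Srsf10, intron 2 had 11.5 and 16 per kb, below the 15.8 and 26.9 of intron 4. Srsf5 was not among the 8 genes, because its extra exon is not internal, but intron 5, which holds it, had 189 per kb at E2.5 and 103 at E3.5. At E2.5, introns 2, 3, 4, 6 and 7 of Srsf5 had 49.7, 34.3, 5.86, 11.8 and 49.2 per kb. Intron 1 had 52.5 after the longest form of exon 1 and 323 after the shortest, where it includes reads of the longer form and exceeds intron 5.

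No intron of an SR gene free of annotated exons reached the level taken to mark detention. The level was an intron density of at least 10% of the median exon density of the gene. Introns that overlap an annotated exon were left out, and exons of transcripts annotated as keeping an intron also counted. The counts below therefore do not cover introns annotated as retained. The filter kept 22 of the 61 introns of coding transcripts of the SR genes, and 58578 of 89667 over all genes at E2.5. At E2.5, 0 of these 22 reached it, beside 1.99% of 58578 introns of all genes. At E3.5, 0 of 22 did, beside 8.57% of 67597 introns. The highest of the 22 was 1.17% at E2.5, in intron 2 of Srsf4, and 1.84% at E3.5, in intron 3 of Srsf4. The medians of the SR introns were 0.0672% and 0.0997%, below 0.266% and 0.905% over all introns under the same filter. The size of this gap depended on the setting. With introns that overlap an exon kept, the medians were 0.316% beside 0.352% at E2.5 and 0.350% beside 1.14% at E3.5. With summed exons as the denominator, they were 0.227% beside 0.352% and 0.185% beside 0.712%.

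The values differed between genes. Introns 12, 5 and 8 of Srsf11 had 0.0326%, 0.0198% and 0.0372% of the median exon density at E2.5, from means of only 0.195, 0.597 and 2.85 normalized counts. Introns 6 and 7 of Srsf7 had 0.0481% and 0.0297%. Intron 5 of Srsf3 had 0.0486%, from a mean of 0.845. Introns 3 and 2 of Srsf4, the gene with the lowest level, were at 0.602% and 1.17% at the same stage, and intron 1 of Srsf1 at 0.788%. The percentages also depend on the exon density below the line, 5650 per kb in Srsf11 and 333 in Srsf4 at E2.5. Among SR-related genes and kinases, 0 of 107 introns reached 10% at E2.5 and 3 of 107 at E3.5, and among hnRNP genes 0 of 88 and 1 of 88.

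With introns that overlap an annotated exon kept, 1 SR intron reached the level. It was intron 3 of Srsf1 (chr11:88049216-88049411, 196 nt), and the longer RefSeq transcript of this gene keeps it within its last exon. Its mean was 23.5 normalized counts at E2.5 and 13.1 at E3.5, which was 17.3% and 11.5% of the median exon density. With these introns kept, the 1 of 61 SR introns was 1.64%, below the 3.503% of 89667 introns of all genes at E2.5 and the 10.9% of 102920 at E3.5. The exons next to the Srsf1 intron were unequal, with 3882 per kb in the 173-nt exon before it and 482 per kb in the 4346-nt last exon after it. Against the mean of these 2 exons the intron had 5.49% and 5.65%. The median exon of Srsf1 was its first exon at E2.5, with 692 per kb, and the 4346-nt last exon at E3.5, with 585. Gm11508, on the opposite strand, overlaps the first exon, so its reads cannot be told apart from those of Srsf1 there. The next highest was intron 2 of Srsf1 at E2.5, with 6.18%, and at E3.5 intron 6 of the Srsf7 transcript that skips the 36-nt exon 7, with 7.98%, whose reads include those of that exon.

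**Figure D4:**
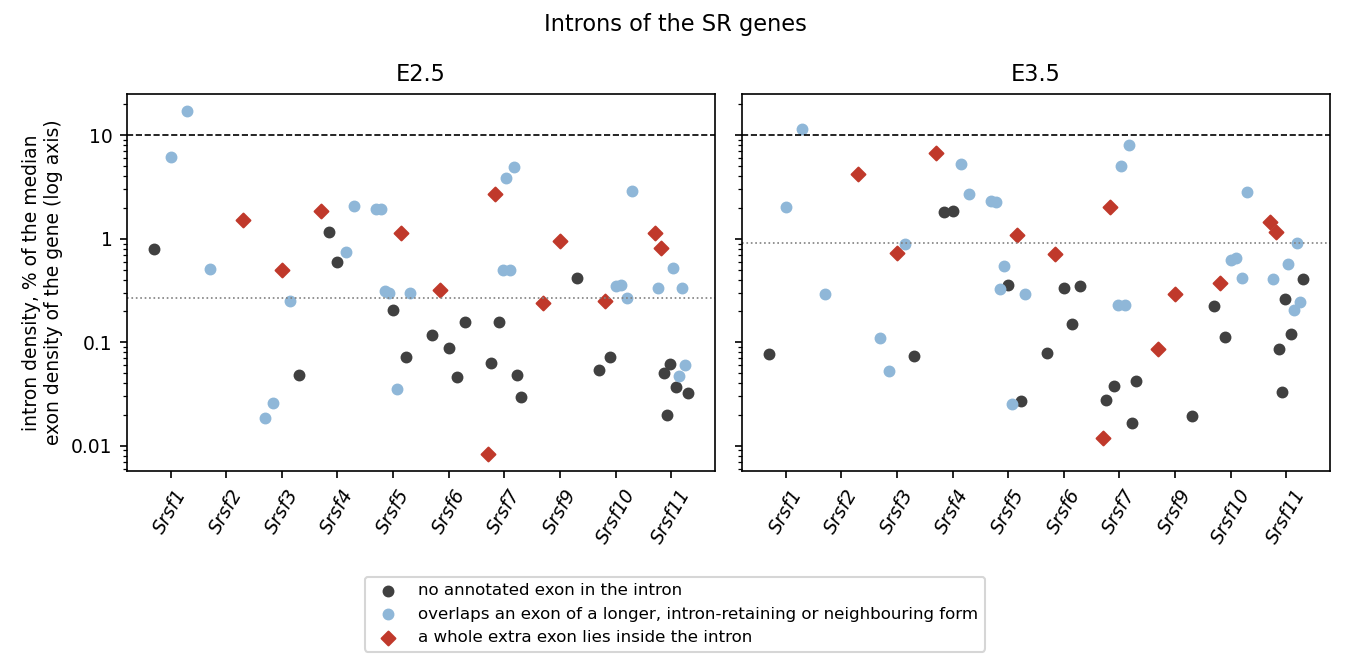
Density of each intron of the SR genes as a percentage of the median exon density of its gene (log axis) at E2.5 and E3.5, with 1 point per intron, taken from means over all embryos. The dashed line marks 10%. The dotted line marks the median over the introns of all genes that are free of annotated exons, 0.266% at E2.5 and 0.905% at E3.5. The point above the dashed line is intron 3 of Srsf1.

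The 2 alternative last exons of Srsf10 changed places in their counts. The nearer one (chr4:135863729-135865818, 2090 nt) had a mean of 469 at E2.5 and 415 at E3.5, and the farther one (chr4:135867126-135869908, 2783 nt) had 264 and 542. The farther exon thus held 36% of their summed count at E2.5 and 56.6% at E3.5. Each is the 3′ end of its own transcripts, but they differ in length, and per kb the shares were 29.7% and 49.5%. No spread is available for this change, and the part of the 3′ shift of reads in it was not tested.

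Other alternative parts of the coding transcripts were covered at both stages. The 36-nt exon 7 of Srsf7 had means of 1603 and 2466, close to the 2055 and 3031 of the 54-nt exon before it. The exons with different ends at exon 5 of Srsf7, of 78, 102 and 111 nt, had 3007, 3242 and 3292 at E2.5. They share most of their bases and so most of their reads. The longer first exon of Srsf5, of 295 nt, had 1656 at E2.5, against 1563 for the 169-nt form nested within it.

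The nonamer UACAGAGAA, which the study placed in its randomized RNA as the site that METTL16 methylates, was searched in the SR transcripts on the sense strand, without mismatches. It was in 0 of the 23 spliced RefSeq transcripts of the 10 genes. The share over all 34854 transcripts was 3.47%, and among transcripts within 20% of the length of each SR transcript it was between 1.02% and 7.44%. In the unspliced genes it occurred 4 times, in intron 1 of Srsf3, intron 1 of Srsf4 and introns 1 and 2 of Srsf11. The match in Srsf4 (chr4:131886268-131886276) lies within its 198-nt extra exon. No match says only that these letters are not in these transcripts.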

How the data were processed

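Single-embryo libraries were made by Smart-seq2, which copies polyadenylated RNA without keeping the strand. The authors estimated counts of RefSeq mm10 transcripts with Salmon 0.7.2 and summed them to genes. They aligned reads with STAR and counted reads touching each exon, and each intron shortened by 10 nt at both ends, with featureCounts. The signal that the authors deposited is the mean over all embryos of a stage of counts normalized with DESeq2 1.18.1. The same tables hold log2 fold changes and adjusted p-values between genotypes, which are the authors' own comparisons and were not used. The in vitro libraries were not used here. The columns of values per sample left unused number 0.

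Densities are mean counts per nt of the listed length, and genes with a mean under 100 were left out of counts over all genes. All lists, the 10% level and the rule to describe all 10 genes, every intron past that level and every poison exon were chosen with earlier results of these data known. No test was run. The counting of introns was tested on simulated data. The files' coordinates were compared with GRCm38.p6, where 66 of the 67 SR introns begin with GT and end with AG, the exception being intron 2 of Srsf10, which begins with AT and ends with AC. The reference sequences are RefSeq's. Python 3.11.15, pandas 2.3.3, numpy 2.4.6, Biopython 1.88, samtools 1.23.1 and matplotlib 3.10.9 were used.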

Additional observations from a re-analysis of the deposited data

How the results depend on the processing

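No paired analysis was possible because the tables hold 1 mean per stage, and for the same reason no embryo could be left out. With summed exon counts in place of the Salmon means, the log2 stage ratio turned to 0.026 in Srsf1 and to 0.037 in Srsf7, and scaled to the total over all genes it turned to 0.087 in Srsf7 and 0.136 in Srsf11. Under either setting, 5 of 10 genes were higher at E3.5. The count of SR genes at least 2-fold lower at E3.5 was 0 scaled to the total and 2 with no filter on the gene mean. With the farther last exon of Srsf10, or both summed, alternatives chosen after seeing the data, 9 of 10 genes had a lower ratio of second to last exon at E3.5. The count of SR introns at the detention level was 1 at both stages with introns that overlap an exon kept, and also 1 when only exons that span the whole intron were ignored, an alternative chosen after seeing the data. The shares over all introns were 3.503% at E2.5 and 10.9% at E3.5 under the first, beside 1.64% of the SR introns, and 2.49% and 9.24% under the second, beside 4%. The SR count was 0 under the thresholds of 5% and 20%, the other exon denominators, the added read length and no filter on the gene mean. All of these settings leave out introns that overlap an annotated exon, and so introns annotated as retained. Against the median exon of the gene, the share of the poison exon was 1.71% at E2.5 and 2.496% at E3.5 in Srsf3 and 9.51% at E2.5 in Srsf9. With 80 nt added to the lengths it was 1.18% and 1.14% in Srsf3 and 6.09% at E2.5 in Srsf7. Values of single embryos were not available, so low means such as those of the Srsf9 exon have no known precision.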
